A study of Mus musculus with 2 samples.

Results

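Transcripts of 9 JAK-STAT transducers, 3 Janus kinases (Jak1, Jak2 and Jak3) and 6 signal transducers and activators of transcription (Stat2, Stat3, Stat4, Stat5a, Stat5b and Stat6), were followed in myeloid-derived suppressor cells (MDSCs) grown from mouse bone marrow. The members were taken by gene symbol from a count table of 54751 genes, and all 9 were found, each as 1 row. Other genes of both families were not analysed here. The series held 2 RNA-seq libraries of WT bone marrow cells. One came from cells given what the labels call mrWNT2, and the other from cells given vehicle. WNT2 belongs to the secreted WNT signalling proteins. Cells were treated on day 0 and day 3, grown in serum-containing RPMI medium, and carry the label day 6. The number of mice behind each culture and the dose are not given in the labels. The title ties the study to accumulation and function of MDSCs in colorectal cancer, and the comparison addresses how added WNT2 alters transcripts of cultured MDSCs.

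JAKs are tyrosine kinases that sit on the tails of cytokine receptors, which have no kinase of their own. Once a cytokine joins its receptor chains, the JAKs phosphorylate the receptor and then the STATs, which pair up, enter the nucleus and switch on target genes. In myeloid cells, the growth factors GM-CSF and G-CSF and the cytokine IL-6 act through STAT3 and STAT5, IL-4 through STAT6, and type I interferons through a complex that contains STAT2. STAT activity is set by phosphorylation, which RNA-seq does not measure.

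The mrWNT2 library held 12621110 counts and the control library 13474453. Each group had 1 library, so no difference below has a replicate check and no p-value can be given. Ratios are mrWNT2 over control of counts scaled to library size, and each is followed by its exact 95% binomial (Clopper-Pearson) interval, which covers counting error only and compares these libraries, not the conditions. CPM is the count scaled to library size, and FPKM is the authors' value per gene length and library size. For the members, that length is all exonic bases of the gene. Comparisons of level between genes therefore also depend on which transcripts were present, which the counting intervals do not cover. A gene was counted as measured where its CPM averaged 1 or more across both, which 12856 genes reached. In bulk RNA, a change in how many cells of a type were present and a change in RNA per cell cannot be told apart. Defining neutrophil and monocyte genes were abundant in both cultures: the 8 neutrophil markers summed to 50739 CPM in the mrWNT2 library and 61911 CPM in the control library, and the 6 monocyte markers to 3452 and 2851 CPM in the same order.

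Of the 9 transducers, 1 was higher in the mrWNT2 library by 1.5-fold or more, Jak3, and 0 were lower by as much. Among all measured genes those shares were 7.62% and 7.02%. At 2-fold, 0 of the 9 were higher and 0 lower, and the shares of all measured genes were 3.38% and 2.49%. Jak3 lay at that edge: scaled by library totals only, it was 2.02-fold higher and 1 of the 9 passed 2-fold. The other 8 transducers lay between 1.17-fold lower and 1.12-fold higher. The median log2 ratio of the 9 was -0.02, against 0.02 over all measured genes. The counting interval lay above a ratio of 1 for 1 member and below it for 2 (Stat5b and Stat6), while 21.0% of all measured genes had intervals above 1 and 18.8% below 1. The count below 1 depended on the scaling, a comparison added after seeing the data: it was 4 with DESeq2 size factors or upper-quartile factors, which added Jak1 and Jak2, and 1 with library totals only, which left Stat6. All 9 were measured, 8 of them at 10 CPM or more on average.

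**Figure D1:**
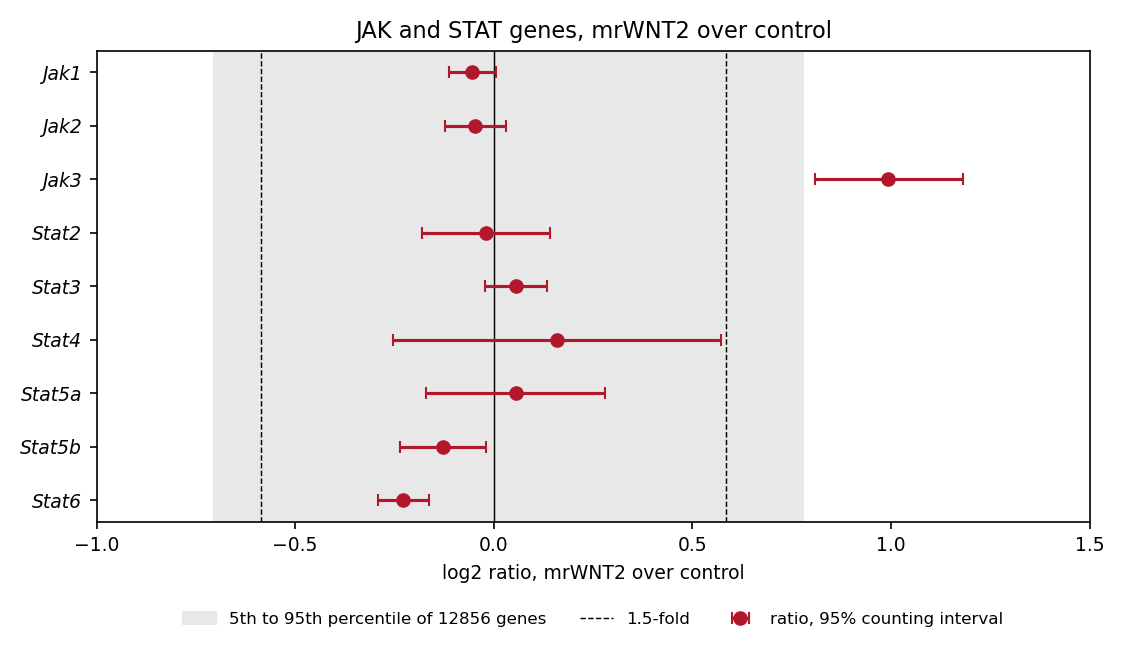
The plot gives the log2 ratio of mrWNT2 over control for the 9 genes, 1 per row; points are ratios of scaled counts, bars are 95% counting intervals, the grey band spans the 5th to 95th percentile of 12856 measured genes (-0.71 to 0.78) and dashed lines mark 1.5-fold. Jak3 lies right of the band at 0.99, and the other 8 genes lie between -0.23 and 0.16.

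Jak3 encodes the kinase that pairs with the common gamma chain, the shared subunit of the receptors for IL-2, IL-4, IL-7, IL-9, IL-15 and IL-21. Jak3 (ENSMUSG00000031805, chromosome 8, 71676296 to 71690575, plus strand, GRCm38) had 689 counts in the mrWNT2 library and 364 in the control library, or 54.2 and 27.2 CPM in the same order. It was the member that differed most, 1.99-fold higher with an interval of 1.75 to 2.27. That ratio stood at percentile 96.6 of all measured genes and at percentile 98.2 of those averaging 10 CPM or more. The 250 bases before the RefSeq start of Jak3 (GRCm38.p6, chr8:71676133-71676382, plus strand) are shown because it is the member that differed most.
Jak3: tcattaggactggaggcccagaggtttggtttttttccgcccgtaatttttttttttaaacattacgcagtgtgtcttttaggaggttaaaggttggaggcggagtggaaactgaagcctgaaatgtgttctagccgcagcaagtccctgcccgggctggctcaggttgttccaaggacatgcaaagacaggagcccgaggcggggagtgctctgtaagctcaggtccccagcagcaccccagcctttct

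Because a ratio of 2 genes within a library does not depend on how libraries are scaled, Jak3 was also set against each other transducer. Its counts relative to the other 8 were between 1.78-fold and 2.33-fold higher in the mrWNT2 library than in the control library, and all 8 counting intervals lay above 1. Jak3 had the highest ratio of the members, so each of these values had to be above 1. All 8 use the same Jak3 counts and are not separate results. This comparison was not set in advance. The lowest lower bound was 1.30, against Stat4, the member with the fewest counts. Of the 5352 exonic bases of Jak3, 404 are also exonic in Insl3, a gene on the same strand that ends at the same base and had 6 counts in the mrWNT2 library and 1 in the control library. The neighbouring gene B3gnt3, 181 bases beyond its end, had 72 counts in the mrWNT2 library and 52 in the control library, a ratio of 1.46 (1.01 to 2.12).

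Jak1 and Jak2 differed little between the libraries. Jak1, the kinase of interferon, gp130 and gamma chain receptors, had 4423 counts in the mrWNT2 library and 4829 in the control library, a ratio of 0.96 (0.92 to 1.004). Jak2, which serves the GM-CSF, erythropoietin and leptin receptors, had 2697 counts in the mrWNT2 library and 2929 in the control library, a ratio of 0.97 (0.92 to 1.02). Both intervals included 1 here, but both lay below 1 with DESeq2 size factors, at 0.90 to 0.98 for Jak1 and 0.897 to 0.997 for Jak2, and with upper-quartile factors. The deposited FPKM carry the DESeq2 scaling.

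On the per-length scale, the order of the 3 kinases was Jak1, Jak2, Jak3 in both libraries. Jak1 stood at 47.6 FPKM in the mrWNT2 library and 50.6 FPKM in the control library, and Jak2 at 41.7 and 44.1 FPKM in the same order. Jak3 stood at 10.0 FPKM in the mrWNT2 library and 5.15 FPKM in the control library. Each step in that order exceeded counting error within each library: the level of Jak1 was 1.14 times that of Jak2 in the mrWNT2 library (1.09 to 1.198) and 1.15 times in the control library (1.10 to 1.202). Jak2 stood at 4.16 times the level of Jak3 in the mrWNT2 library and 8.56 times in the control library. Jak3 made up 10.1% of the summed FPKM of the 3 kinases in the mrWNT2 library and 5.16% in the control library. The sum itself was close in both, at 99.3 FPKM in the mrWNT2 library and 99.7 FPKM in the control library.

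**Figure D2:**
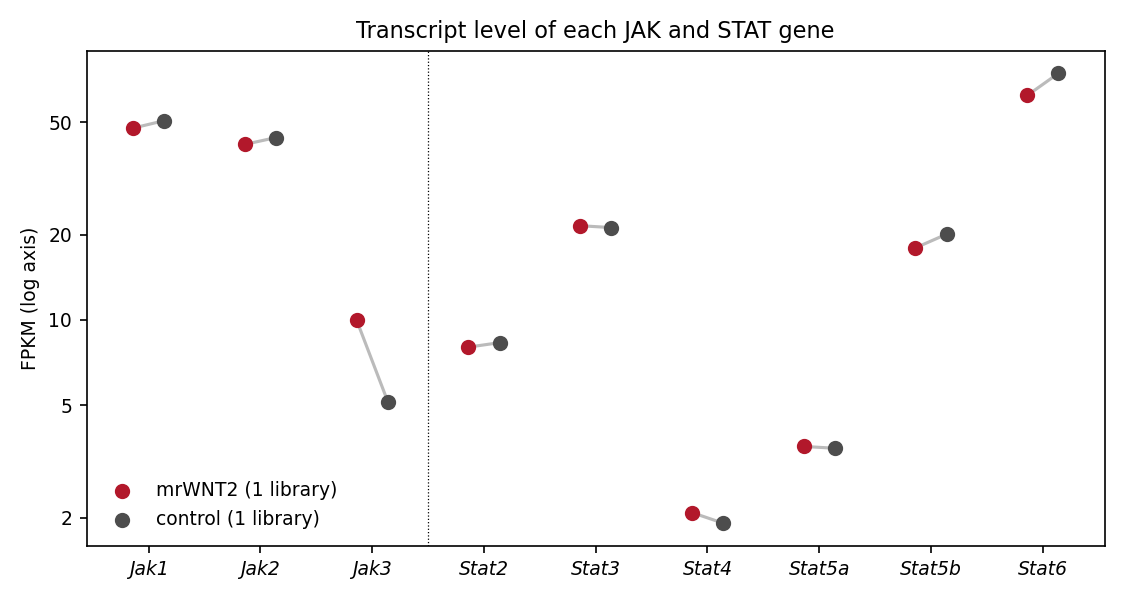
The plot gives the FPKM of each gene on a log axis, with the mrWNT2 library as the red point at left and the control library as the grey point at right of each pair, joined by a line. Jak3 stands at 10.0 FPKM with mrWNT2 and 5.15 FPKM in control, and Stat6, at 62.0 and 74.3 FPKM in the same order, is the highest of the 9 in both libraries.

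Stat6, the STAT that relays IL-4 and IL-13, was the most abundant of the 6 STATs. It had 3513 counts in the mrWNT2 library and 4325 in the control library, or 62.0 and 74.3 FPKM in the same order. It was 1.17-fold lower (1.12 to 1.22), although 45.1% of all measured genes had a log2 ratio of larger size. Relative to the other transducers, leaving out Jak3, its counts were lower in the mrWNT2 library beyond counting error in 5 of 7 pairs. The exceptions were Stat4 and Stat5b. Stat6 had the lowest ratio of the members, so each of these values had to be below 1. All 7 pairs use the same Stat6 counts and are not separate results. This comparison was not set in advance either. Stat6 made up 53.9% of the summed FPKM of the 6 STATs in the mrWNT2 library and 57.5% in the control library.

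Stat3, which relays IL-6, IL-10 and G-CSF, had 2637 counts in the mrWNT2 library and 2668 in the control library, a ratio of 1.04 (0.98 to 1.10). Its level was 21.5 FPKM in the mrWNT2 library and 21.2 FPKM in the control library. Stat2, the interferon complex subunit, had 611 counts in the mrWNT2 library and 651 in the control library, a ratio of 0.99 (0.88 to 1.10). Both intervals included 1.

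Stat5b and Stat5a encode close relatives that respond to GM-CSF and IL-2. Stat5b had 1280 counts in the mrWNT2 library and 1471 in the control library and was 1.09-fold lower (1.01 to 1.18); with library totals only its interval of the ratio, 0.86 to 1.002, reached 1. Stat5a had 328 counts in the mrWNT2 library and 332 in the control library, a ratio of 1.04 (0.89 to 1.21). Per length, Stat5b stood at 5.03 times the level of Stat5a in the mrWNT2 library and 5.71 times in the control library. The change in that ratio was within counting error, since the Stat5a to Stat5b ratio was 1.14 times as high in the mrWNT2 library with an interval of 0.95 to 1.35.

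The coding sequences of Stat5a (2391 bases) and Stat5b (2358 bases) matched at 90.8% of 2291 aligned bases, and their longest identical run was 324 bases. Of the 50-base words in their GENCODE transcripts, 8.21% of those of Stat5a and 11.0% of those of Stat5b occurred in the other gene, so the split of reads between them is uncertain over those stretches. The 75 coding bases that lead into this run, joined across an intron, are shown as an example of that likeness. They lie within chr11:100865501-100874072 on the plus strand for Stat5a and chr11:100798652-100801411 on the minus strand for Stat5b (GRCm38), and the capital marks the single base that differs.
Stat5a: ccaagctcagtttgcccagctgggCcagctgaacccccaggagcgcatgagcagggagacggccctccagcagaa
Stat5b: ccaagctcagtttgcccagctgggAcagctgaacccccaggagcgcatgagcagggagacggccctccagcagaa

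Stat4, which relays IL-12 and type I interferon in lymphocytes, was the least abundant transducer. It had 104 counts in the mrWNT2 library and 98 in the control library, a ratio of 1.12 with an interval of 0.84 to 1.49. Its counts were too few to tell ratios within that range apart. Of its 3872 exonic bases, 1033 are shared with Gm28177, a transcript on the same strand that had 0 counts in both libraries. The sources used here do not say how reads in shared bases were assigned. Stat3 and Stat5a, neighbours on chromosome 11, overlap by 72 bases on opposite strands.

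The 6 STATs ran in the same order of FPKM in both libraries: Stat6, Stat3, Stat5b, Stat2, Stat5a and Stat4. Neighbours in that order differed beyond counting error except Stat3 and Stat5b in the control library, where the level of Stat3 was 1.05 times that of Stat5b with an interval of 0.99 to 1.12. The highest level exceeded the lowest 29.7-fold in the mrWNT2 library and 38.8-fold in the control library. Among all 9 genes, Jak3 changed place with Stat2: Jak3 stood above Stat2 in the mrWNT2 library, by 1.249 times per length (1.12 to 1.39), and below it in the control library, where Stat2 stood at 1.62 times the level of Jak3 (1.42 to 1.84).

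**Figure D3:**
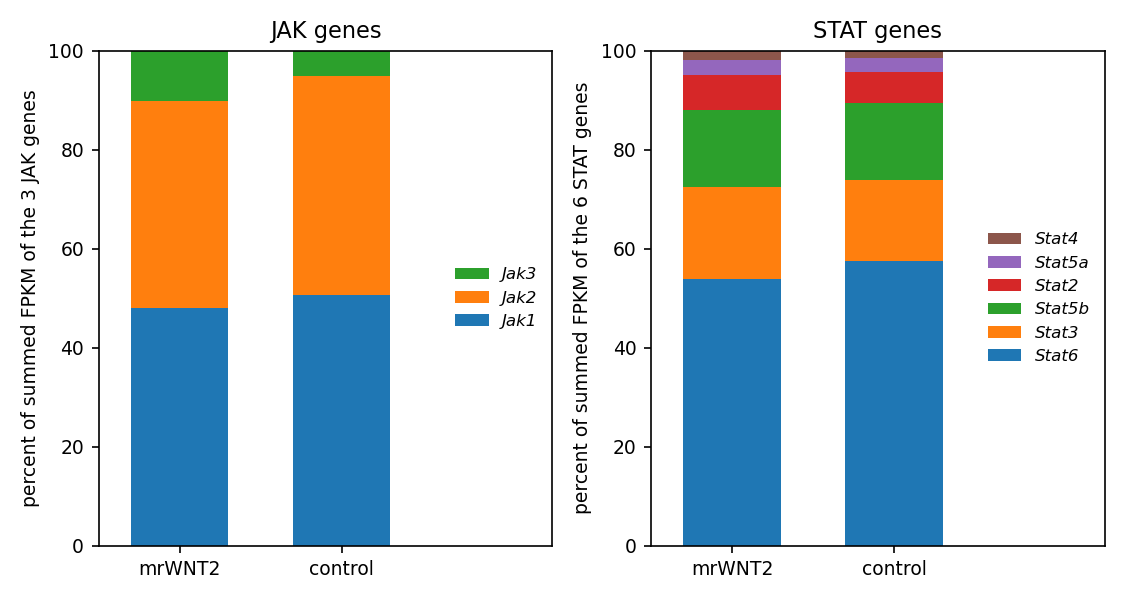
The stacked bars give each gene's percent of the summed FPKM of the 3 kinases (left panel) and of the 6 STATs (right panel), with the mrWNT2 library left of the control library. The Jak3 block is 10.1% with mrWNT2 and 5.16% in control, and Stat6 is the largest STAT block in both.

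Promoter windows, from 250 bases before to 50 after the RefSeq start, were found for all 9 genes (12 windows, GRCm38.p6). The windows were searched on both strands for 3 motifs. The gamma-activated site TTCNNNGAA, which STAT dimers bind, was in 0 of the 12, and in 8.30% of 32851 windows of all genes. The interferon response element GAAANNGAAA was in 2 of the 12, and in 3.44% of all windows. The TCF motif CTTTGA, which WNT-controlled TCF factors bind, was in 1 of the 12, a Stat5a window, and in 16.0% of all windows. The Jak3 window printed above held none of the 3. One of the interferon element matches began 222 bases before the start of Stat2, whose protein is part of the complex that binds this element. The other was in a Stat4 window. The 250 bases before the start of Stat2 (chr10:128270248-128270497, plus strand) are shown with the match in capitals.
Stat2: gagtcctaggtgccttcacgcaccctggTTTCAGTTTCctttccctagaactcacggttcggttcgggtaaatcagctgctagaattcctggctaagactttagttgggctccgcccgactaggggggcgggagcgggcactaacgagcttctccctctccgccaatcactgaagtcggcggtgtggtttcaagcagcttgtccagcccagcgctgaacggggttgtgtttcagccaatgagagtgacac

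The receptors that use these kinases were then examined. Of 37 listed receptor genes, 31 were measured: 8 were higher in the mrWNT2 library by 1.5-fold or more, 1 was lower by as much and 22 lay between, with a median log2 ratio of 0.30. That is 25.8% higher and 3.23% lower, against the 7.62% and 7.02% of all measured genes given above. The gamma chain gene Il2rg, whose protein is the docking chain of JAK3, had 950 counts in the mrWNT2 library and 478 in the control library, 2.09-fold higher (1.87 to 2.34). Its level relative to Jak3, per length, was 3.09 in the mrWNT2 library and 2.94 in the control library, and the change in that ratio was within counting error (1.05, 0.88 to 1.246). This pair was set side by side after the values were seen.

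Chains that join the gamma chain did not all differ the same way. Il2ra, the IL-2 receptor alpha chain, was 2.98-fold higher (2.505 to 3.57), while Il15ra was 1.39-fold higher (1.22 to 1.57) and Il7r 1.35-fold higher (1.15 to 1.58). In the opposite direction, Il4ra was 1.16-fold lower, with a ratio of 0.86 (0.83 to 0.90), and Il21r had a ratio of 0.75 (0.58 to 0.96). Il2rb, the signalling chain of the IL-2 and IL-15 receptors, had 1 count in each library. The defining genes of lymphocytes that use this receptor family were at or near 0: of 15 T and NK cell markers 1 was measured, Nkg7, with 263 counts in the mrWNT2 library and 270 in the control library, and 4 (Zap70, Ncr1, Gzma and Eomes) had 0 counts in both. The list summed to 23.0 CPM in the mrWNT2 library and 23.2 CPM in the control library, and 6 B cell markers to 4.32 and 4.71 CPM in the same order.

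Among receptors of other classes, Il6st, which encodes the shared chain gp130 of the IL-6 family, was the 1 gene lower by that much. It had 387 counts in the mrWNT2 library and 965 in the control library, 2.37-fold lower, with a ratio of 0.42 (0.37 to 0.48). Il10ra, the ligand-binding chain of the IL-10 receptor, had 1612 counts in the mrWNT2 library and 900 in the control library, 1.88-fold higher (1.73 to 2.05). Lepr, the leptin receptor, was 7.94-fold higher (5.65 to 11.5). Il23r, named after its values were seen, had 32 counts in the mrWNT2 library and 0 in the control library. With that 0 replaced by 3 counts its ratio was 11.2, but the lower end of its exact counting interval was 8.61.

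Growth factor and interferon receptor chains differed less. Csf2rb, the shared beta chain for GM-CSF, IL-3 and IL-5, was 1.29-fold higher (1.26 to 1.31) from 18468 counts in the mrWNT2 library and 15109 in the control library. Its relative Csf2rb2 had 6065 counts in the mrWNT2 library and 4901 in the control library, a ratio of 1.30 (1.253 to 1.35). Of the 50-base words in their transcripts, 12.3% of those of Csf2rb and 18.4% of those of Csf2rb2 occurred in the other gene, so which of the pair such reads came from is uncertain. Csf2ra, the other GM-CSF receptor chain, had a ratio of 0.85 (0.81 to 0.89). Csf3r, the G-CSF receptor, had a ratio of 0.99 (0.96 to 1.03), and Ifngr1, an interferon gamma receptor chain, 0.81 (0.76 to 0.85). Other interferon receptor chains went the other way. The ratios were 1.24 (1.14 to 1.34) for Ifngr2, 1.26 (1.16 to 1.37) for Ifnar1 and 1.12 (1.03 to 1.21) for Ifnar2.

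**Figure D4:**
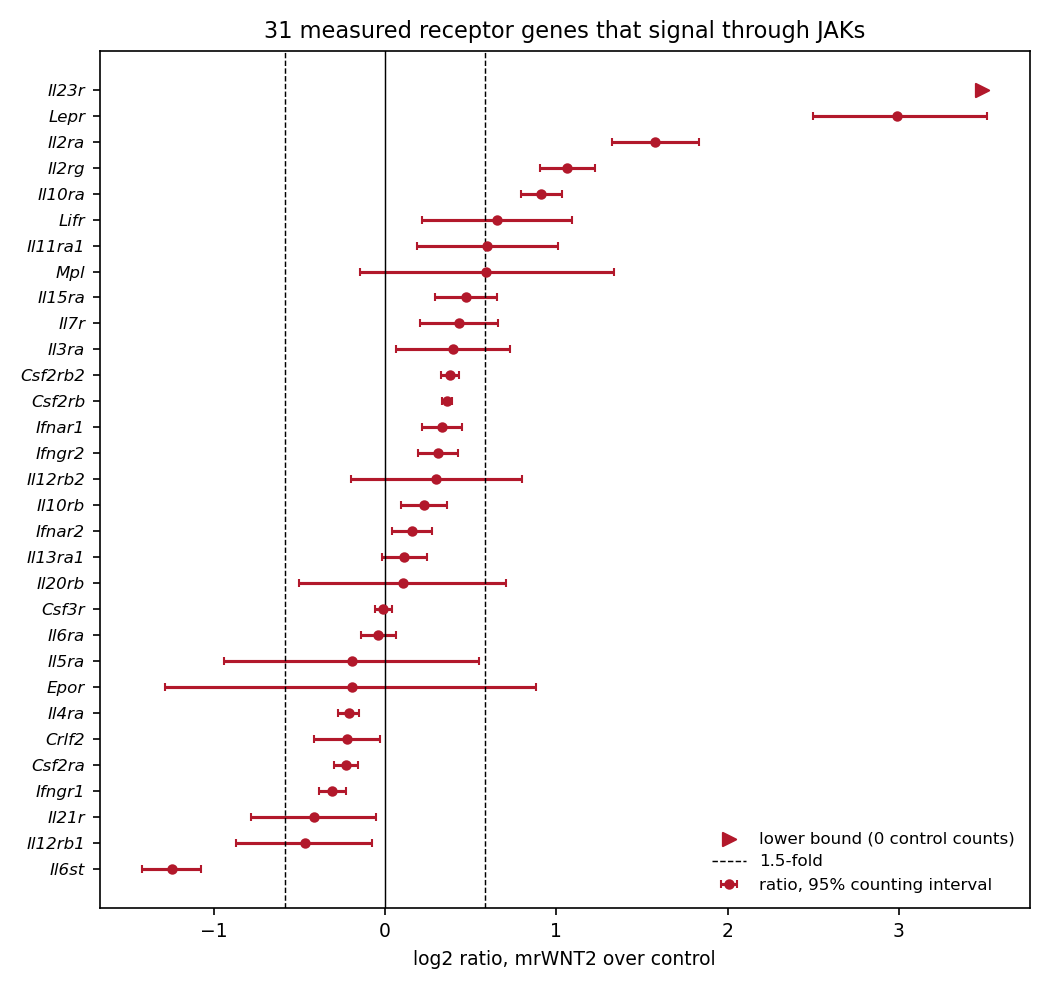
The plot gives the log2 ratio of mrWNT2 over control for the 31 measured receptor genes, sorted by value. Points are ratios, bars are 95% counting intervals, and dashed lines mark 1.5-fold. The arrowhead, labelled as a lower bound, is the ratio of a gene with 0 control counts, with that 0 replaced by 3 counts. Il2ra, Il2rg and Il10ra lie right of the 1.5-fold line and Il6st lies left of it.

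Of 20 inhibitors of the pathway, all measured, 1 was higher by 1.5-fold or more, 0 were lower by as much and 19 lay between, with a median log2 ratio of -0.08. That is 5% higher and 0% lower, again against 7.62% and 7.02% of all measured genes. The gene was Socs3, which encodes a feedback inhibitor that binds gp130 and the G-CSF receptor and is itself a STAT3 target. It had 1789 counts in the mrWNT2 library and 695 in the control library, 2.71-fold higher (2.48 to 2.96). Socs1, which restrains interferon and gamma chain signals, had a ratio of 0.93 (0.84 to 1.04). Cish, a STAT5 target that feeds back on STAT5, was 1.30-fold lower, with a ratio of 0.77 (0.72 to 0.82). Pias3, named for inhibition of STAT3, had a ratio of 0.74 (0.64 to 0.87), and the phosphatase gene Ptpn2 1.19 (1.06 to 1.35).

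Genes known as targets of each STAT, from general knowledge of other cells, were counted in the same way, to be read beside those shares of all measured genes and their median of 0.02. Of 19 measured STAT3 targets, 6 were higher by 1.5-fold or more and 1 (Timp1, with 3 counts in the mrWNT2 library and 27 in the control library) was lower by as much, with a median log2 ratio of 0.31. Besides Socs3 and the acute-phase gene Saa3 (5.82-fold, 5.65 to 6.002), Bcl3 was 2.24-fold higher (1.93 to 2.62) and Junb 2.11-fold higher (1.96 to 2.28). Cebpd and Fgl2 had ratios of 0.84 (0.75 to 0.95) and 0.77 (0.70 to 0.86). Of 12 STAT5 targets, 3 were higher by 1.5-fold or more and 0 lower by as much, with a median of 0.0044 on the log2 scale: Il2ra, Socs3 and the cyclin gene Ccnd2 (1.95-fold, 1.797 to 2.12). The lists overlap: Socs3 was also counted above as an inhibitor and as a STAT3 target, and Il2ra as a receptor. Id1 had a ratio of 0.85 (0.79 to 0.92).

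STAT6 targets lay on both sides. Of 17 measured, 4 were higher and 6 lower by 1.5-fold or more, with a median log2 ratio of -0.21. The chemokine genes Ccl22 (5.02-fold, 4.10 to 6.18) and Ccl17 (2.70-fold, 2.12 to 3.47) were at the high end. Retnla and Mrc1 were at the low end, with ratios of 0.08 and 0.33. Several of these genes also mark macrophages, and Mrc1 is in both lists. Of 9 macrophage markers 2 (22.2%) were higher and 6 (66.7%) lower by 1.5-fold or more, against 7.62% and 7.02% of all measured genes. The list summed to 1555 CPM in the mrWNT2 library and 1943 CPM in the control library. The lower sum depended on Mrc1, at 307 CPM in the mrWNT2 library and 943 CPM in the control library. The 2 higher markers were Adgre1, at 584 and 325 CPM in the same order, and Marco, at 363 and 41.9 CPM. The part of macrophage content in the STAT6 target values was not tested.

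Targets of the STAT2 complex were low in both libraries and mostly close. Of 20 listed, 16 were measured, with 2 higher and 2 lower by 1.5-fold or more and a median log2 ratio of 0.13. The antiviral genes Oas1a (2.01-fold, 1.55 to 2.62) and Bst2 (1.91-fold, 1.54 to 2.38) were higher, while Cmpk2 had a ratio of 0.59 (0.49 to 0.71). The other lower gene, Mx1, had only 7 counts in the mrWNT2 library and 20 in the control library. Irf9, the DNA-binding partner of STAT2, had a ratio of 0.91 (0.78 to 1.06). Of 9 STAT4 targets 6 were measured, and by the same threshold 0 were higher and 3 lower, with a median log2 ratio of -0.27. The IL-18 receptor genes Il18rap and Il18r1 had ratios of 0.61 (0.59 to 0.64) and 0.65 (0.57 to 0.73), Furin 1.15 (1.11 to 1.201) and Hlx 1.06 (0.94 to 1.196). The remaining lower gene, Gzmb, had only 14 counts in the mrWNT2 library and 26 in the control library. Its ratio was 0.57, and the interval of 0.27 to 1.12 included 1. Ifng, the classic STAT4 target of lymphocytes, had 0 counts in both libraries.

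**Figure D5:**
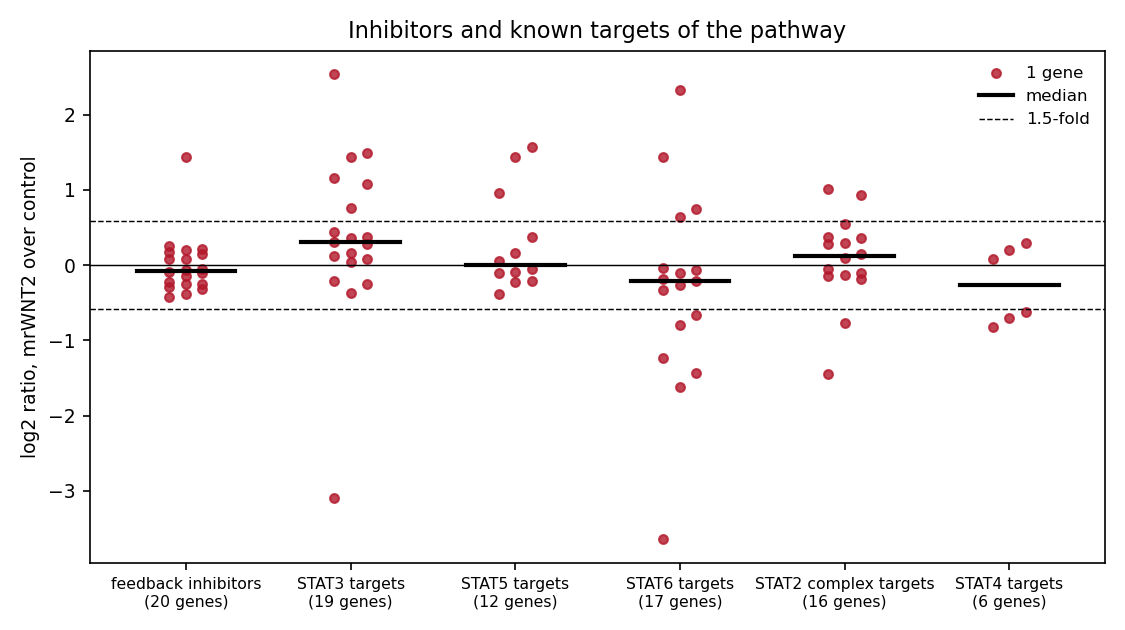
The plot gives the log2 ratio of mrWNT2 over control for the measured inhibitors and target genes, 1 point per gene and 1 column per list, with the median as a black bar and dashed lines at 1.5-fold. Inhibitors cluster near 0 apart from Socs3, and STAT6 targets extend furthest below 0.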

How the data were processed

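RNA-seq of 1 mrWNT2 and 1 vehicle control culture was used. TRIzol extraction of total RNA and NEBNext Ultra library preparation are given in the labels' protocols. The tools in the submitters' processing notes are DESeq2 1.20.0, featureCounts 1.5.0-p3, HISAT2 2.0.5, CASAVA 1.8 and fastp, and the build is GRCm38, also called mm10. Strand setting and read length are not given in the sources used here. The authors deposited whole-number counts per gene and FPKM for the same genes. The deposited FPKM values imply library sizes of 12865751 for mrWNT2 and 13218237 for control, which equal DESeq2 size factors put on the scale of the totals.

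Counts were scaled with TMM factors (1.01 for mrWNT2, 0.992 for control) in edgeR 4.0.16 under R 4.3.3. Ratios used no pseudocount, and a count of 0 was replaced by 3 counts per library, about 0.236 CPM for mrWNT2 and 0.224 CPM for control. With 1 library per group, no test was run. The labels name no molecular identifiers, and copies made by PCR could leave these intervals too narrow. The ratio code was tested on simulated data. Promoter sequences are from RefSeq (GRCm38.p6), and transcripts and exons from GENCODE M21 (GRCm38), whose exonic length equalled the deposited gene length for all 9 members. Coordinates are 1-based.

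The members and lists were chosen with earlier results of these data known. All members are named, and of each of 7 pathway lists the 2 highest and 2 lowest ratios with a mean of at least 10 CPM, with preset receptor chains and Socs1, Socs3 and Cish. Other genes named were chosen after their values were seen. There were 7 marker lists. Dendritic cell markers (3 of 8 measured, 0 past 1.5-fold) and basophil and mast cell markers (6 of 6 measured, 1 lower, Kit) had medians of -0.20 and -0.19 on the log2 scale. Neutrophil markers had 0 higher and 2 lower of 8, and monocyte markers 3 higher and 0 lower of 6. The shares of all measured genes at 1.5-fold were 7.62% higher and 7.02% lower. Alternatives were other scalings, folds and expression minimums.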

Additional observations from a re-analysis of the deposited data

How the results depend on the processing

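Each alternative scaling moved the log2 ratio of every gene by the same amount. The amount was -0.034 with DESeq2 size factors, 0.022 with library totals only and -0.052 with upper-quartile factors. The deposited FPKM repeat the DESeq2 scaling. The 36 alternative member ratios (these scalings and the FPKM, for 9 genes) are therefore not separate checks. All stayed within the member's counting interval, and the largest shift was 0.05 on the log2 scale. Jak3 ranged from 0.94 to 1.01. At a fold of 2, however, 0 members were past the threshold, since Jak3 was 1.99-fold higher; with library totals only it was 2.02-fold higher and 1 member passed. Intervals below 1 numbered 2, but 4 with DESeq2 size factors and 4 with upper-quartile factors (Jak1 and Jak2 joined) and 1 with library totals only (Stat5b left). These settings were chosen after seeing the data. At a fold of 2, 4 of 31 measured receptors, 2 of 17 STAT6 targets and 1 of 16 STAT2 complex targets were higher. At the same fold, 1 of 16 STAT2 complex targets and 0 of 6 STAT4 targets were lower. The shares of all measured genes at this fold were 3.38% higher and 2.49% lower. Shares of all genes were computed only at a mean of at least 1 CPM, so the counts at other minimums have none beside them. With a mean of at least 10 CPM, 4 receptors were higher, and 0 STAT3 targets and 1 STAT2 complex target lower. With no expression minimum, 2 receptors and 2 STAT3 targets were lower, 1 STAT4 target was higher, and the STAT4 target median was 0.088 on the log2 scale, against -0.27 over measured genes. The added genes there have few counts. The other values, 148 of 164, were labelled as kept. The limits were the counting interval for ratios, a 1.5-fold range for counts of genes, and the median half-width of a list's counting intervals for its median. A kept count could therefore still change: receptors higher by 1.5-fold or more numbered 8, but 6 with DESeq2 size factors. The Jak3 shares were labelled as kept without a limit. No paired analysis was possible because each group held 1 library, and no replicate could be left out for the same reason. Depth limits Stat4 and Stat5a most, with intervals of 0.84 to 1.49 and 0.89 to 1.21.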
